A study of Mus musculus with 6 samples.

Results

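The genes described here set the pace of glycolysis in the liver or mark its stages. They are 9 genes, taken by symbol from a table of 56691 genes: Gckr, Gpi1, Pfkl, Pfkfb1, Pfkfb2, Pfkfb3, Gapdh, Pgk1 and Pklr. All 9 were in the table, and 8 of them were among the 10756 genes that were tested, those whose FPKM (a level per kilobase of exon, relative to the library total) averaged at least 1. Pfkfb3 fell just short, with a mean of 0.938 FPKM over the 6 libraries, so it was not in the main test and was tested only under other filters.

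Liver poly(A) RNA came from pregnant wild-type (WT) C57BL/6J mice, all female, of an age that no source used here states. The PF group (n = 3) was switched to a high-fructose diet (HFrD) part of the way through pregnancy, and the PC group (n = 3) stayed on normal chow (NC). Livers were taken late in pregnancy. Both groups were pregnant and carried no transgene or deletion, and livers of unmated mice were not analysed here, so the comparison is of diet within pregnancy. It asked which hepatic genes differ when a pregnant mouse eats fructose, with the carbohydrate-sensing transcription factor ChREBP (encoded by Mlxipl) in view. The labels do not say whether the 3 libraries of a group were from separate litters or cages, but the study describes its replicates as biological.

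Glycolysis splits glucose into pyruvate, and in hepatocytes it is controlled at a few irreversible steps. The first is the trapping of glucose as glucose 6-phosphate, which the regulatory protein encoded by Gckr holds back until fructose 1-phosphate, the first product of fructose breakdown, releases the brake. Phosphofructokinase commits the sugar to glycolysis and is switched on by fructose 2,6-bisphosphate, which the bifunctional Pfkfb enzymes make and degrade. Liver pyruvate kinase closes the pathway. Fructose enters below the phosphofructokinase step, at the triose phosphates, which is why the steps above and below that entry are set out separately.

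Each library held between 16119145 and 19676361 counts. Levels are given as CPM, counts put on a common library size with TMM factors, which correct for a few genes taking much of a library. That correction mattered: Alb took 7.56% to 15.8% of the counts in PF and 18.1% to 19.9% in PC, and the mitochondrial chromosome took 10.0% to 15.3% in PF and 5.03% to 9.69% in PC. Scaled by library totals alone, the median log2 difference (PF over PC) of all tested genes was 0.39, against 0.02 with TMM factors. PF2 stood apart from PF1 and PF3, with an Alb share of 15.8% against 7.97% and 7.56%. All 8 hepatocyte markers checked were well expressed, with a summed level of 43070 to 76520 FPKM in PF and 91030 to 96220 FPKM in PC, while 2 of 5 adipocyte and 2 of 6 exocrine pancreas markers had no counts in any library. The summed lymphocyte markers reached 16.6 FPKM in PF1, against 1.78 to 4.55 FPKM in the other 5 libraries. PF1 and PF3, the livers with the low Alb share, were above all PC livers in the summed markers of cholangiocytes (39.4 and 57.5 FPKM, against 13.0 to 27.4 FPKM in PC), stellate cells (46.8 and 51.5 FPKM, against 24.2 to 37.1 FPKM) and endothelial cells (51.1 and 42.1 FPKM, against 26.9 to 35.96 FPKM), while PF2 was within the PC range for all of these lists (17.8, 25.0 and 31.0 FPKM). The summed macrophage markers were 143 to 234 FPKM in PF and 119.5 to 167 FPKM in PC, and overlapped. Those of erythroid cells varied widely within both diets, from 95.5 to 237.8 FPKM in PF and from 49.78 to 250.9 FPKM in PC. Of the 6 cholangiocyte markers, 1 was among the tested genes. All these sums are on library totals, without TMM factors. The factors were 1.231 in PF1 and 1.205 in PF3, against 0.8496 to 0.9076 in PC. TMM scaling would thus lower PF1 and PF3 against PC, and whether they would still lie above all PC livers was not tested. In whole liver a smaller share of a cell type and less RNA per cell cannot be told apart, and the part of these differences in the results below was not tested.

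The start of the Pklr gene carries a well known glucose response element of the liver, first worked out in rat, so it is shown here. Carbohydrate response elements of this type hold a pair of incomplete E-boxes, CACGNG and CNCGTG, held apart by 5 bases. Of the 2 Pklr start sites in the RefSeq promoter table (GRCm38.p6), the downstream one had such a pair beginning at position −170, with position −1 the last base before the start, and the sequence TATAAA beginning at −31. The 250 bases before that start, chr3:89136373-89136622 on the plus strand of GRCm38.p6, read as follows, with the paired element and TATAAA in capitals.
Pklr: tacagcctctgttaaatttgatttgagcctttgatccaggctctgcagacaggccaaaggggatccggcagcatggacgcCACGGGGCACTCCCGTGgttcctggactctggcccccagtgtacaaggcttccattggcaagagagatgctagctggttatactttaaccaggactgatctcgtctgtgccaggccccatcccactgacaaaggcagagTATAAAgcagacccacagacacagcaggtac

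The same search was run on the gene's strand of all 32851 promoter windows of the table, each of 250 bases before and 50 bases after a start. The paired element and CACGTG read the same on the opposite strand, but TATAAA does not. The paired element was in 15 of them (0.0457%), in 14 of 27025 genes, and in no other window of the 9 genes. A complete E-box, CACGTG, was in 7.15% of all windows, in 2187 of 27025 genes. Among the 9 genes it was in 1 window each of Pfkfb2 and Pfkfb3, whose other windows had none. TATAAA was in 8.32% of all windows on the gene's strand. Gckr, Gpi1, Gapdh and Pklr also had a higher mean in PF, with no CACGTG in any of their windows. The stretches around the E-boxes of Pfkfb2 and Pfkfb3 are shown because both genes had higher levels in PF. They lie at chr1:130715822-130715873 and at chr2:11502108-11502173, both on the minus strand of GRCm38.p6 and read 5′ to 3′ on that strand, with the E-box in capitals.
Pfkfb2: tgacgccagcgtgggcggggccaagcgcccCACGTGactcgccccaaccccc
Pfkfb3: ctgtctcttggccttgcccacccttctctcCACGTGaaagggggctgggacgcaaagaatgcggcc
A match is a description of the letters in a window and not evidence of binding. The counts are per gene and do not say which start site was used.

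Of the 8 tested genes, 5 (Gckr, Gpi1, Pfkfb2, Gapdh and Pklr) had a higher mean in PF livers at an unadjusted p under 0.05, and 0 had a lower one. Over all tested genes edgeR's quasi-likelihood test gave 9.13% higher and 7.9% lower at that level. After Benjamini-Hochberg adjustment edgeR called 0 of the 8 genes and 0 of 10756 genes in all (0.0%), while DESeq2 called 3 of the 8 higher (Gckr, Pfkfb2 and Pklr) and 0 lower, against 1.97% of all tested genes higher and 2.61% lower. In the same 3 genes every PF library lay above every PC library, as in 11.8% of all tested genes, and in 0 of the 8 every PF library lay below, as in 11.1%. The median log2 fold change of the 8 genes was 0.73, against 0.02 for all tested genes. The genes were chosen with earlier results of these data known, so these comparisons with all tested genes are descriptions only. Without PF2, edgeR called 403 genes in all and 1 of the 8, Gckr (adjusted p = 0.0374, within a range of 0.000577 to 0.519 over its 16 alternatives).

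**Figure D1:**
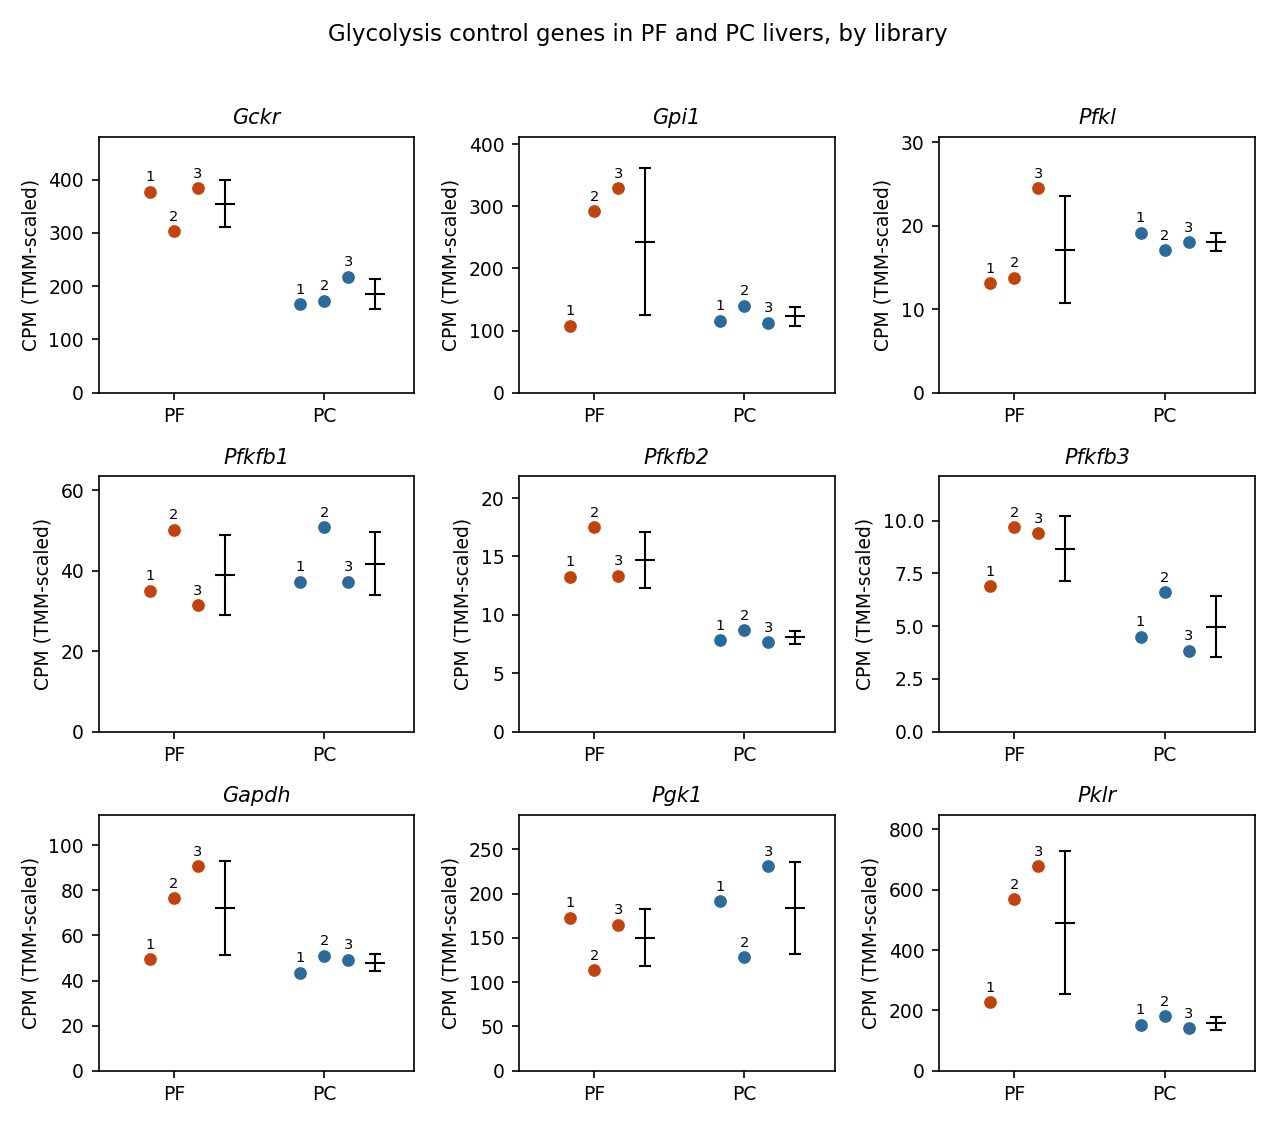
Level of each of the 9 genes in CPM (TMM-scaled, linear axes from 0) in the 3 PF and 3 PC libraries, with the replicate number at each point and the mean ± SD as a black bar beside each group. For Gckr, Pfkfb2, Pfkfb3 and Pklr the PF points all lie above the PC points, while PF1 lies below all PC points for Gpi1 (108 CPM, against 113 to 140.1 CPM in PC) and among them for Gapdh.

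Gckr encodes GKRP, the regulatory protein of hepatic glucose phosphorylation (ENSMUSG00000059434, chr5:31454787-31484658 on GRCm39, plus strand). It was at 377, 304 and 384 CPM in PF1, PF2 and PF3, against 166, 173 and 218 CPM in PC1, PC2 and PC3. The lowest PF liver was well above the highest PC liver, and the 3 PF values were close together. The mean was 355 ± 44.6 CPM in PF and 186 ± 28.3 CPM in PC (SD, n = 3 each), a log2 fold change of 0.94 ± 0.19 (standard error, SE, edgeR adjusted p = 0.135, DESeq2 adjusted p = 0.000577). PF1, which stood near the PC livers for Gpi1 and Gapdh, was here about as high as PF3.

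Gpi1 encodes glucose 6-phosphate isomerase, which turns glucose 6-phosphate into fructose 6-phosphate and works in both directions (ENSMUSG00000036427, chr7:33900755-33929761, minus strand). Its level was 108, 292 and 329 CPM in PF1, PF2 and PF3, against 116, 140.1 and 113 CPM in PC1, PC2 and PC3. PF2 and PF3 were far above all PC livers, while PF1 was the lowest of the 6. The log2 fold change was 0.98 ± 0.39 (SE, edgeR adjusted p = 0.264, DESeq2 adjusted p = 0.127). On the FPKM scale, without the TMM correction, the groups did not overlap, with 20.5, 44.6 and 61.5 FPKM in PF and 15.3, 19.7 and 15.5 FPKM in PC.

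Pfkl is the liver-type phosphofructokinase, the committing step itself (ENSMUSG00000020277, chr10:77822781-77845917, minus strand). It was at 13.1, 13.8 and 24.5 CPM in PF1, PF2 and PF3, against 19.1, 17.0 and 18.0 CPM in PC1, PC2 and PC3. The PC livers were nearly equal, and the PF livers lay on both sides of them. The log2 fold change was −0.08 ± 0.25 (SE, edgeR adjusted p = 0.909), and its sign turned when PF1 or PF2 was left out and when libraries were scaled by their totals alone, which moved all genes upward.

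The Pfkfb genes encode the enzymes that set fructose 2,6-bisphosphate. Pfkfb1 is the classical liver isozyme, whose kinase is switched off by phosphorylation when glucagon is high (ENSMUSG00000025271, chrX:149371225-149426874, plus strand). It had 35.1, 50.2 and 31.4 CPM in PF1, PF2 and PF3, against 37.2, 50.8 and 37.3 CPM in PC1, PC2 and PC3. The groups overlapped, with PF2 and PC2 the highest of each and PF1 and PF3 below all PC livers. The log2 fold change was −0.11 ± 0.22 (SE, edgeR adjusted p = 0.843), with a positive sign when PF3 or PC2 was left out and under library totals, with all genes moved upward.

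Pfkfb2 is the isozyme best known from heart (ENSMUSG00000026409, chr1:130616919-130656990, minus strand). It was at 13.3, 17.5 and 13.3 CPM in PF1, PF2 and PF3, against 7.84, 8.71 and 7.67 CPM in PC1, PC2 and PC3. Every PF liver was above every PC liver. The PC livers differed little, while PF2 was above PF1 and PF3. With a mean of 14.7 ± 2.43 CPM in PF and 8.07 ± 0.558 CPM in PC (SD, n = 3 each), the log2 fold change was 0.86 ± 0.17 (SE, edgeR adjusted p = 0.134, DESeq2 adjusted p = 0.00854).

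Pfkfb2 shares 7032 bases with Yod1 on the opposite strand, and Yod1 had 156% as many counts as Pfkfb2 over the 6 libraries. Yod1 itself was at 17.7, 24.2 and 16.8 CPM in PF and 16.4, 17.5 and 15.7 CPM in PC (log2 fold change 0.25 ± 0.17 SE, edgeR adjusted p = 0.513). No source used here states whether reads were counted by strand, so reads of the pair may have been assigned to either gene.

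Pfkfb3 is the inducible isozyme, with the highest ratio of kinase to phosphatase activity (ENSMUSG00000026773, chr2:11476244-11558888, minus strand). It had 6.90, 9.70 and 9.42 CPM in PF1, PF2 and PF3, against 4.50, 6.61 and 3.83 CPM in PC1, PC2 and PC3. The lowest PF liver was just above the highest PC liver. The mean was 8.67 ± 1.54 CPM in PF and 4.98 ± 1.45 CPM in PC (SD, n = 3 each), a ratio of 1.74. With no filter on low genes the log2 fold change was 0.77 ± 0.26 (SE, edgeR adjusted p = 0.147), and with edgeR's own filter it was 0.78 (edgeR adjusted p = 0.231).

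The make-up of the Pfkfb family was also compared within each library, where scaling between libraries cancels. Pfkfb1 made up 73.5%, 75.6% and 68.5% of the summed FPKM of Pfkfb1, Pfkfb2, Pfkfb3 and Pfkfb4 in PF1, PF2 and PF3, against 82.7%, 84.7% and 83.8% in PC1, PC2 and PC3. The share was lower in each PF liver than in each PC liver. Its mean was 72.6% ± 3.66 in PF and 83.7% ± 0.994 in PC (SD, n = 3 each), a difference of −11.1 percentage points (two-sided exact permutation test, p = 0.1, the smallest that 3 against 3 allows). Leaving out 1 library at a time gave differences from −12.7 to −9.13.

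Pfkfb2 took 15.4% ± 0.75 of that sum in PF and 9.08% ± 0.906 in PC, and Pfkfb3 took 8.78% ± 1.85 in PF and 5.25% ± 0.633 in PC (SD, n = 3 each). Pfkfb4, the testis-type isozyme, made up 3.28% in PF and 1.97% in PC. The sum of the 4 genes was 14.9 ± 1.27 FPKM in PF and 11.0 ± 2.25 FPKM in PC. Unlike the shares, this sum depends on the scaling between libraries and is without TMM factors. Those factors were 0.984 to 1.231 in PF and 0.8496 to 0.9076 in PC, so TMM scaling would narrow the difference. By share, Pfkfb1 remained the main transcript of the family in all 6 livers, while the other 3 genes had a larger mean share in PF.

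**Figure D2:**
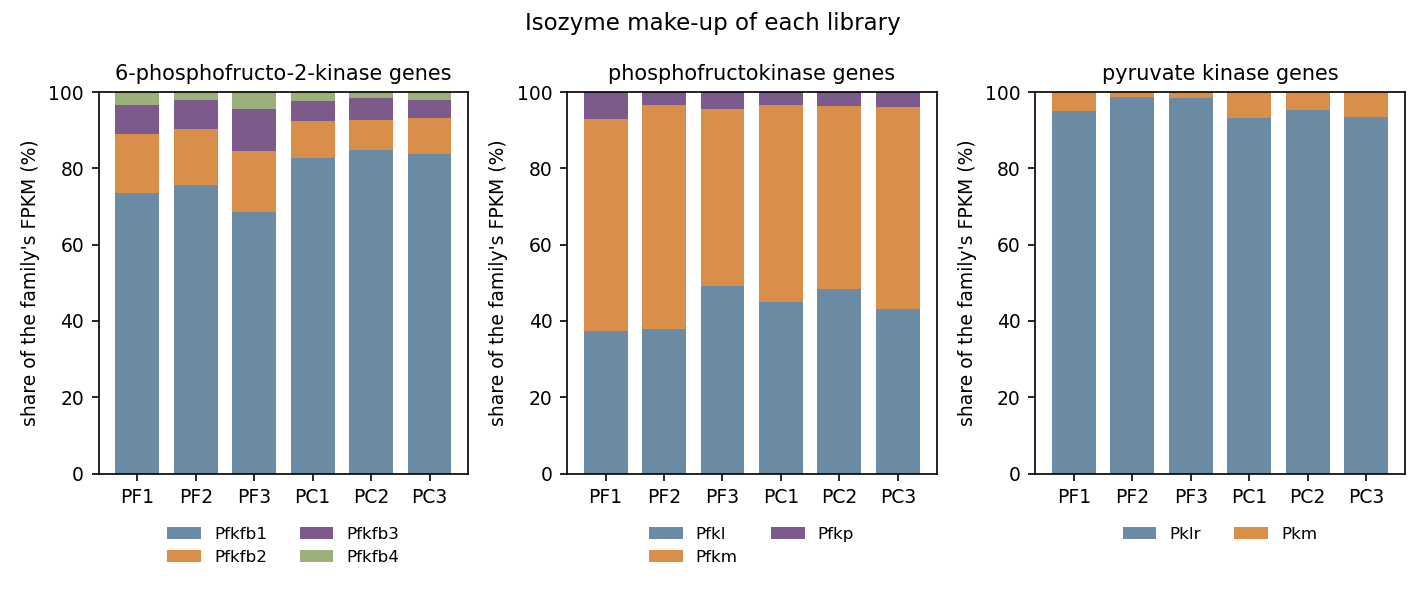
Share of each isozyme gene in the summed FPKM of its family (percent, stacked to 100) in the PF livers (left) and the PC livers (right), for the 6-phosphofructo-2-kinase, phosphofructokinase and pyruvate kinase genes. Pfkfb1 takes 68.5% to 75.6% in PF and 82.7% to 84.7% in PC, and Pklr takes 95.0% to 98.7% in PF and 93.2% to 95.3% in PC.

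Within the phosphofructokinase genes, Pfkl made up 37.2%, 37.9% and 49.1% of the summed FPKM in PF1, PF2 and PF3, against 45.0%, 48.3% and 43.2% in PC1, PC2 and PC3, and the groups overlapped. The muscle-type gene Pfkm took 53.6% ± 6.41 in PF and 50.8% ± 2.44 in PC (SD, n = 3 each). Before division by exonic length (6675 bases for Pfkl, 3340 for Pfkm), Pfkl had more counts than Pfkm in every liver. They ranged from 227 to 523 for Pfkl and from 134 to 247 for Pfkm, so the order by share rests on the lengths. FPKM divides by the length of all annotated exons, so shares of genes with long unused exons are understated. Whether exon use differed between the diets was not tested. Fbp1, the fructose 1,6-bisphosphatase that opposes phosphofructokinase in gluconeogenesis, was far more abundant, with 0.00723, 0.00642 and 0.00665 Pfkl per Fbp1 on the FPKM scale in PF1, PF2 and PF3 and 0.00761, 0.0104 and 0.00819 in PC1, PC2 and PC3. This ratio, like the others given here, was picked out after values were seen and carries no test.

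Gapdh and Pgk1 act below the point where fructose carbon enters. Gapdh oxidises glyceraldehyde 3-phosphate and is widely used as a reference gene for other assays (ENSMUSG00000057666, chr6:125138678-125143430, minus strand). It was at 49.3, 76.4 and 90.8 CPM in PF1, PF2 and PF3, against 43.5, 51.0 and 49.2 CPM in PC1, PC2 and PC3. PF2 and PF3 were above all PC livers and PF1 was among them. The log2 fold change was 0.59 ± 0.23 (SE, edgeR adjusted p = 0.262, DESeq2 adjusted p = 0.217). On the FPKM scale the groups did not overlap, with 14.7, 18.2 and 26.5 FPKM in PF and 8.95, 11.2 and 10.6 FPKM in PC.

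The mouse genome holds many copies of Gapdh, and how reads that match several copies were counted is not given in the sources used here, so its level is uncertain. The 2 gene models of the table named as its pseudogenes had 3 counts in all, beside 6516 for Gapdh. It also shares 68 bases with Iffo1 on the opposite strand, which had 14.8% as many counts, and Pfkfb1 shares 1640 bases with Apex2, also on the opposite strand, which had 13.8% as many.

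Pgk1, the phosphoglycerate kinase that makes the first ATP of the pathway, went the other way in its mean (ENSMUSG00000062070, chrX:105230706-105247305, plus strand). It was at 173, 113 and 165 CPM in PF1, PF2 and PF3, against 191, 128 and 231 CPM in PC1, PC2 and PC3. The groups overlapped widely, with PF2 and PC2 the lowest of each. The log2 fold change was −0.29 ± 0.27 (SE, edgeR adjusted p = 0.622), and the sign turned only where the scaling moved all genes upward, as under library totals. The 3 gene models named as its pseudogenes had 50 counts, beside 17852 for Pgk1.

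Pklr, the pyruvate kinase of liver and red cells, had the largest difference of the 9 genes (ENSMUSG00000041237, chr3:89043449-89054091, plus strand). It was at 226, 569 and 678 CPM in PF1, PF2 and PF3, against 152, 181 and 139.9 CPM in PC1, PC2 and PC3. All PF livers were above all PC livers, but PF1 lay much closer to PC2 than to the other PF livers. The mean was 491 ± 236 CPM in PF and 158 ± 21.3 CPM in PC (SD, n = 3 each), and the log2 fold change was 1.64 ± 0.39 (SE, edgeR adjusted p = 0.159, DESeq2 adjusted p = 0.00165).

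Pklr overlaps Hcn3, an ion channel gene on the opposite strand, by 711 bases. Hcn3 had 15.9% as many counts as Pklr and was at 18.1, 149 and 87.9 CPM in PF1, PF2 and PF3, against 26.8, 26.4 and 11.5 CPM in PC1, PC2 and PC3 (log2 fold change 1.98 ± 0.69 SE, edgeR adjusted p = 0.225). As for Pklr, PF2 and PF3 were high, but PF1 was within the PC range. Which of these reads came from Pklr was not tested.

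Pklr made up 95.0%, 98.7% and 98.5% of the summed FPKM of Pklr and Pkm, the pyruvate kinase gene of most other tissues, in PF1, PF2 and PF3, against 93.2%, 95.3% and 93.6% in PC1, PC2 and PC3. The share in PF1 lay within the PC range. Pkm itself had means of 15.0 ± 3.59 CPM in PF and 15.3 ± 1.84 CPM in PC (SD, n = 3 each). The ratio of Pklr to Pck1, the phosphoenolpyruvate carboxykinase of gluconeogenesis that leads away from pyruvate, separated the diets in each library. It was 1.26, 1.25 and 0.974 on the FPKM scale in PF1, PF2 and PF3, against 0.162, 0.4999 and 0.138 in PC1, PC2 and PC3. PF1 stood with the other PF livers here, with a low Pck1 level (191 CPM) beside its low Pklr level.

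The levels could also be ordered by FPKM within each diet. In PF the order was Pklr (171 FPKM), Gckr (94.3), Pgk1 (77.7), Gpi1 (42.2), Gapdh (19.8), Pfkfb1 (10.8), Pfkl (2.96), Pfkfb2 (2.28) and Pfkfb3 (1.29 FPKM). In PC it was Pgk1 (71.9 FPKM), Pklr (43.1), Gckr (37.8), Gpi1 (16.8), Gapdh (10.2), Pfkfb1 (9.21), Pfkl (2.39), Pfkfb2 (0.983) and Pfkfb3 (0.583 FPKM). The ranges of Pklr, Gckr and Pgk1 overlapped among the PF livers, as did those of Pgk1 and Gpi1, of Gpi1 and Gapdh, and of Pfkl and Pfkfb2. Among the PC livers only those of Pklr and Gckr and those of Gapdh and Pfkfb1 did. Pgk1 was above Pklr in all 3 PC livers and in PF1 (94.7 FPKM for Pgk1, 86.1 FPKM for Pklr), and below it in PF2 and PF3.

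**Figure D3:**
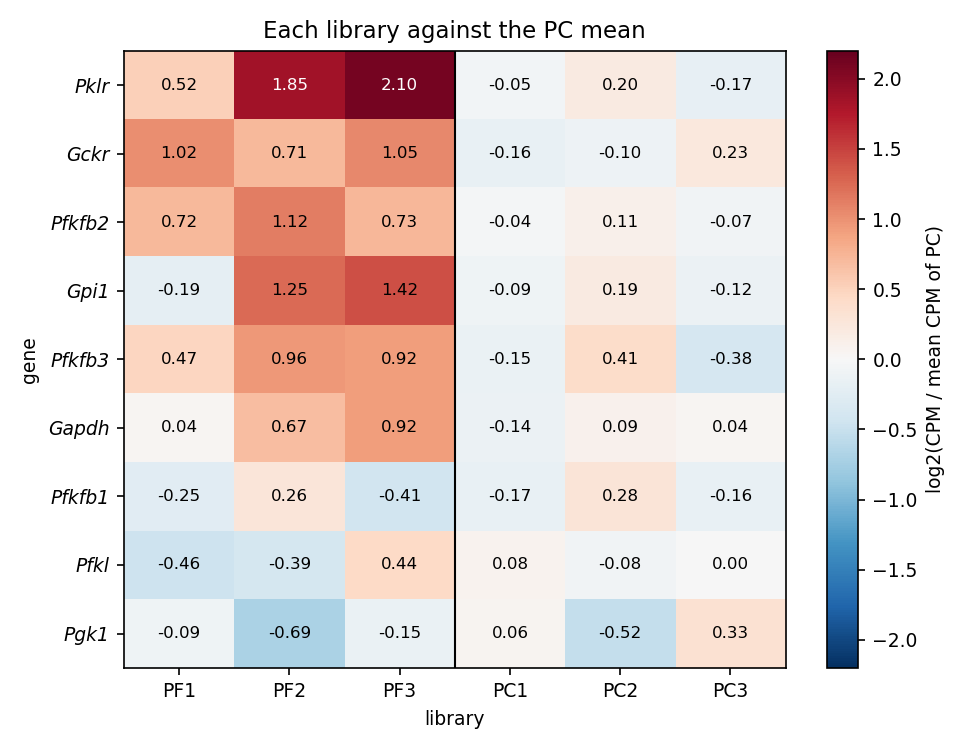
Log2 ratio of each library's CPM to the mean CPM of the PC libraries, for the 9 genes ordered by their mean in PF (colour and printed value). PF1 is at 1.02 for Gckr but at 0.52 for Pklr, −0.19 for Gpi1 and 0.04 for Gapdh, where PF3 is at 2.10, 1.42 and 0.92.

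The PF livers were not alike over the 9 genes. Set against the PC mean on the log2 scale, their median stood at 0.04 for PF1, 0.71 for PF2 and 0.92 for PF3, and between −0.09 and 0.11 for the PC livers. PF3 was the highest of the 6 livers for 5 genes and PF2 for 2, whereas PF1 was the highest for none and the lowest for 2, Gpi1 and Pfkl. For Gckr and Pfkfb2, by contrast, PF1 lay with or near the other PF livers, at 1.02 and 0.72.

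Over the 6 livers, Gpi1, Gapdh and Pklr varied most closely together, with Pearson's r of log2(CPM + 1) of 0.973 for Gpi1 and Gapdh, 0.967 for Gapdh and Pklr and 0.953 for Gpi1 and Pklr. Pgk1 and Pfkfb3 were the most opposed pair (r = −0.776). These values describe 6 libraries in 2 groups, share the same scaling factors and carry no p.

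Among 2578 protein-coding genes that averaged 10 FPKM or more, those most like each gene were found by the same measure. Gpi1 and Gapdh shared Gss, the glutathione synthetase, among their nearest genes (r = 0.989 and 0.982), beside Rmdn2 for Gpi1 (0.987) and Gpi1 for Gapdh. Nearest to Pklr were Rgs16, a regulator of G protein signalling (0.986), Acaca, the acetyl-CoA carboxylase of fatty acid synthesis (0.977), and Gapdh. Nearest to Pfkfb3 were Tkt, the transketolase of the pentose phosphate pathway (0.991), Zfp970 (0.986) and Dusp6, a phosphatase of ERK (0.984).

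Gckr was most like Gng11 (r = 0.985), Mif4gd (0.978) and Lipc, the hepatic lipase (0.973). Pfkfb2 was most like Ccnl1 (0.988), Tsc22d3, a glucocorticoid-induced gene also called Gilz (0.976), and Clk1, a kinase of splicing factors (0.970). Outside these, Pfkl was nearest to Reep3 (0.986), Cap1 (0.981) and Rpl7 (0.971), Pfkfb1 to Aes (0.987), Pfn1 (0.987) and Mrpl52 (0.986), and Pgk1 to the complement gene C8b (0.98), Plxnb2 (0.976) and Ceacam1 (0.975). Pfkfb2 averaged less than 10 FPKM and could not be named as a nearest gene. These short lists therefore do not show whether the 3 genes called by DESeq2 varied together. Between those 3 genes r was 0.812 for Gckr and Pfkfb2, 0.729 for Gckr and Pklr and 0.863 for Pfkfb2 and Pklr.

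Of 27 other glycolytic enzymes, isozymes and glucose transporters, 19 were tested. At an unadjusted p under 0.05 by edgeR, 1 of the 19 was higher in PF (Eno3) and 2 were lower (Bpgm and Ldha). Over all tested genes 9.13% were higher and 7.9% lower at that level. By edgeR or DESeq2 0 of the 19 passed adjustment, and their median log2 fold change was 0.20. Eno3, the muscle-type enolase, was at 7.81, 11.8 and 7.87 CPM in PF1, PF2 and PF3, against 5.14, 6.80 and 4.87 CPM in PC1, PC2 and PC3 (log2 fold change 0.71, edgeR adjusted p = 0.219). Each PF liver was above each PC liver, as in 11.8% of all tested genes. The testis-type Gapdhs had a like log2 fold change of 0.71 at a low level, with overlap between the groups (edgeR adjusted p = 0.309).

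Bpgm, which diverts glycolytic carbon to 2,3-bisphosphoglycerate, was at 10.5, 19.0 and 6.79 CPM in PF1, PF2 and PF3, against 23.4, 27.9 and 22.0 CPM in PC1, PC2 and PC3 (log2 fold change −1.02, edgeR adjusted p = 0.217). Ldha, the lactate dehydrogenase subunit that works on the pyruvate Pklr makes, was at 261, 305 and 511 CPM in PF1, PF2 and PF3, against 665, 593 and 585 CPM in PC1, PC2 and PC3 (log2 fold change −0.77, edgeR adjusted p = 0.237). For both genes each PF liver was below each PC liver, as in 11.1% of all tested genes. With library totals alone their log2 fold changes were −0.70 and −0.39.

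**Figure D4:**
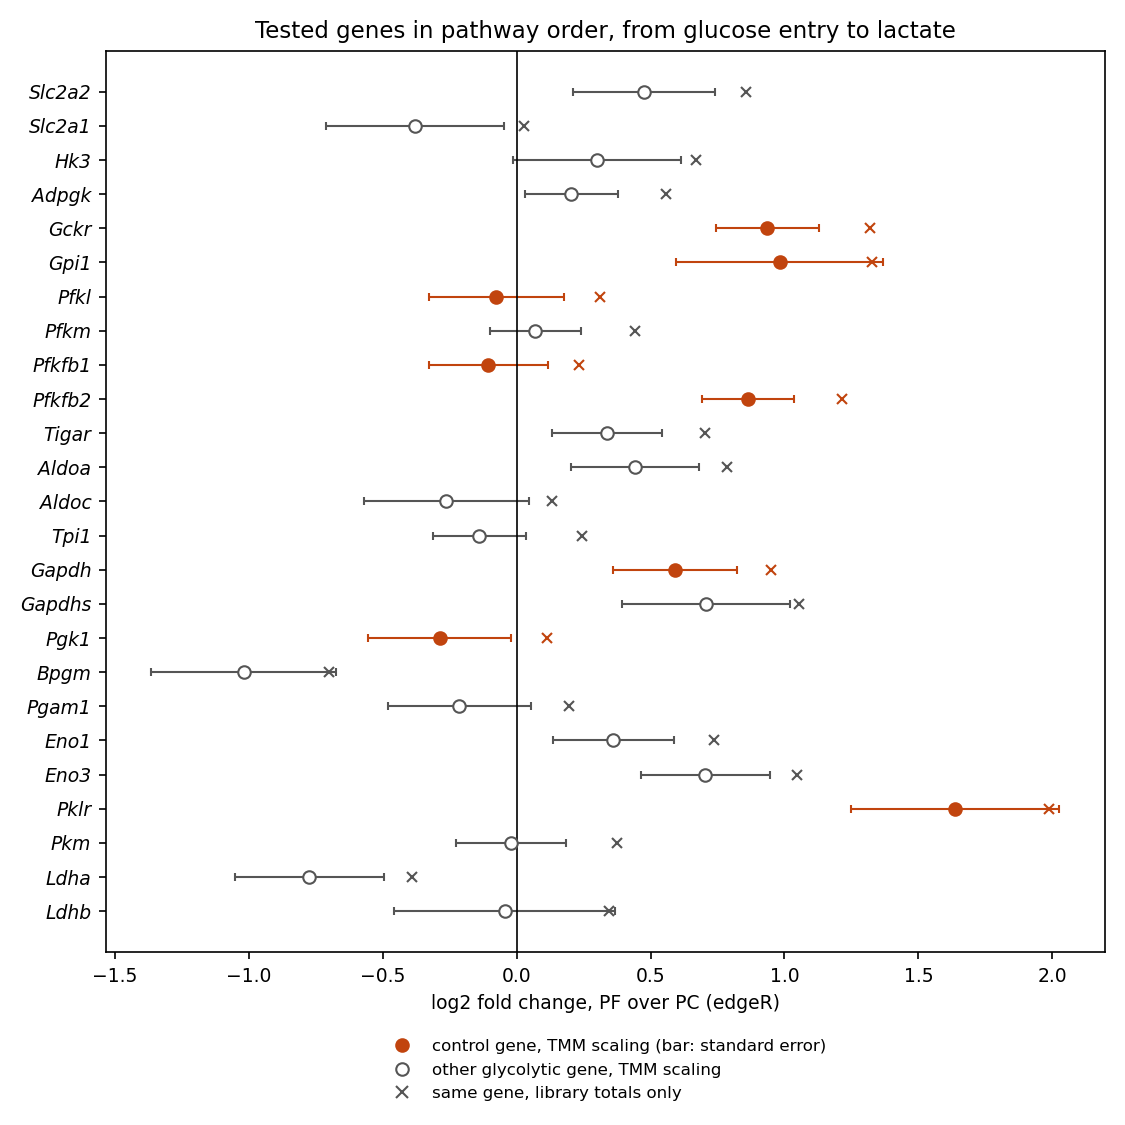
edgeR log2 fold change (PF over PC) of the 8 control genes (filled red) and 17 other tested glycolytic genes (open grey), in pathway order from glucose entry at the top to lactate at the bottom, with bars of 1 standard error; crosses give the same genes scaled by library totals alone. Pklr lies furthest to the right (1.64) and Bpgm furthest to the left (−1.02), and the crosses lie to the right of the circles for every gene drawn.

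Among 8 gluconeogenic genes of the opposing steps, 6 were tested, with a median log2 fold change of 0.27. Of these, 0 reached an unadjusted p under 0.05 by edgeR, against 9.13% higher and 7.9% lower over all tested genes. DESeq2 called 0 of them. The glucose 6-phosphate transporter Slc37a4 (log2 fold change 0.51), the glucose 6-phosphatases G6pc (0.90) and G6pc3 (0.27) and Pck1 (−0.80) had edgeR adjusted p-values of 0.321, 0.486, 0.665 and 0.495. Pck1 was at 191, 483 and 738 CPM in PF1, PF2 and PF3, against 991, 385 and 1074 CPM in PC1, PC2 and PC3. PC2 was thus below PF2 and PF3, and the groups overlapped.

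Of 8 transcription factors that act on hepatic glycolysis, all were tested, and Mlxipl and Srebf1 were higher in PF at an unadjusted p under 0.05, with 0 lower. Over all tested genes edgeR gave 9.13% higher and 7.9% lower at that level. Mlxipl, the gene of ChREBP, was at 824, 598 and 666 CPM in PF1, PF2 and PF3, against 237, 308 and 281 CPM in PC1, PC2 and PC3, and was the 1 factor called by DESeq2 (log2 fold change 1.34, edgeR adjusted p = 0.12, DESeq2 adjusted p = 1.53e-07). PF1 was the highest of the 6 livers for Mlxipl, although for Pklr it was the lowest of the PF livers. Srebf1, which mediates the insulin response of the lipogenic genes, was at 186, 255 and 415 CPM in PF1, PF2 and PF3, against 99.6, 202 and 64.6 CPM in PC1, PC2 and PC3, with PC2 above PF1 (log2 fold change 1.22, edgeR adjusted p = 0.249). Hnf4a, which sustains the hepatocyte programme, was below all PC livers in each PF liver (log2 fold change −0.39, edgeR adjusted p = 0.312), and Mlxip, the ChREBP paralogue MondoA, was above them in each (0.34, edgeR adjusted p = 0.375). All PF livers lay below all PC livers in 11.1% of all tested genes, and above them in 11.8%. With library totals alone the log2 fold change of Hnf4a was −0.03.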

How the data were processed

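Poly(A) RNA libraries of 6 mouse livers were grouped by their titles and treatment labels. The table deposited by the authors holds whole-number counts per gene and library, not normalised, and FPKM values that the authors made from the same counts, the exonic length and the library total, with gene positions on GRCm39. Tools named in the submitters' processing notes are HISAT2 (2.2.1), HTSeq (0.6.1), cutadapt (1.9.1) and DESeq2, with no settings. The annotation release is not given in the sources used here. Symbols were matched by Ensembl identifier for 52073 of 56691 genes.

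Counts of the 10756 genes that averaged 1 FPKM or more were tested with edgeR 4.0.16 (R 4.3.3), using the two-sided quasi-likelihood test of PF minus PC with TMM factors and no covariate, Benjamini-Hochberg adjustment and a threshold of 0.05. The standard error (SE) was taken as the log2 fold change over the root of the F statistic. Alternatives were DESeq2 1.42.0, limma-trend (3.58.1) on log2(FPKM + 1) and log2(FPKM + 0.1), other scalings, other filters, the replicate number as a block and leaving out each library. The edgeR script was tested on simulated counts. Levels in CPM use the TMM-scaled library sizes. All libraries of a group differed by more than sampling noise.

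The 9 genes, the lists and the motifs were chosen with earlier results of these data known. Named beside the 9 genes are up to 4 genes of each list with the smallest unadjusted p, Mlxipl, up to 3 genes of the most similar profile per gene, and overlapping genes with at least 10% of a gene's counts. Some genes that these rules would name are not reported here. Others are said to be picked out after their values were seen. Promoter windows and motifs come from the RefSeq table of GRCm38.p6, in which all 9 genes were matched by symbol.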

Additional observations from a re-analysis of the deposited data

How the results depend on the processing

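The count of calls depended on the test. edgeR called 0 genes (982 higher and 850 lower at an unadjusted p under 0.05), DESeq2 called 493, limma called 4 with a pseudocount of 1 and 2 with 0.1, and edgeR called 180 with library totals alone, 555 with no filter and 1 with its own filter. Of these calls 161 of 180 were higher in PF with library totals, against 212 of 493 by DESeq2 and 239 of 555 with no filter. Leaving out 1 library gave 0 to 403, with 403 without PF2 (128 of them higher in PF) and 1 without PF1. Of the glycolysis control genes, 3 were called by DESeq2, 3 with library totals and 3 with no filter, each time Gckr, Pfkfb2 and Pklr, and 0 to 1 when a library was left out. The log2 fold changes of Gckr, Gpi1, Pfkfb2, Gapdh and Pklr were positive under all alternatives run, from 0.39 (Gapdh) to 1.99 (Pklr). Over the same alternatives the adjusted p ran from 0.000577 to 0.519 for Gckr, from 0.00854 to 0.508 for Pfkfb2 and from 0.00165 to 0.519 for Pklr.

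Signs turned for 3 genes, none of them called under any alternative. Pfkl was at 0.18 and 0.22 with limma (pseudocounts 1 and 0.1) and 0.31 with library totals, and at −0.43 to 0.086 with 1 library left out. Pfkfb1 was at 0.22 and 0.24 with limma and 0.23 with library totals, and at −0.34 to 0.060 with 1 library left out. Pgk1 was at 0.093 and 0.094 with limma and 0.11 with library totals. Those limma and library-total fits also placed the median of all genes at 0.29, 0.36 and 0.39, against 0.02 with TMM factors, so relative to that median all of these values were still negative.

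Same-numbered libraries of the 2 diets correlated at −0.17, 0.28 and 0.11 in their deviations from the group means, and PF1 correlated best with PC3 (0.32), so the numbers were not taken to pair the livers. With the replicate number as a block edgeR called 0 genes and 0 of the control genes. Low counts limit Pfkfb3, with 67 to 201 counts per library.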
